A study of Bos taurus with 96 samples.

Results

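Fat that grows inside a muscle and fat that surrounds the kidney were compared in beef cattle. The comparison used 12 arrays of fat dissected out of the longissimus dorsi, the long muscle of the back (IMF, intramuscular or marbling fat), and 12 arrays of kidney fat (Kid), which together make 24 of the 96 arrays of the study. The depot labels of the samples chose them, so no measured value entered the choice of arrays.

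The steers were Angus, Hereford or Wagyu x Angus and were killed at about 26 months of age, after pasture without supplement from weaning and then 259 days of grain in a feedlot. Each depot had 4 arrays of each of the 3 breeds. The other arrays held subcutaneous fat over the rump (SC), inter-muscular fat (Inter) and omental fat (Omen), with 12 arrays each, and 36 arrays of the muscle itself with its fat in place (LD), 12 of these from steers given supplement. Part of the LD arrays came, per the methods of the study, from steers killed earlier, and the labels do not tell which, so LD is not wholly matched to the fat in age and time on grain. Tissue was taken at the abattoir from steers that gave several depots each, but the labels do not tie an array to an animal, so the arrays entered the test as independent and the p-values measure the spread between arrays.

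Marbling fat lies between the bundles of muscle fibres, in the connective tissue that also carries the vessels and nerves of the muscle. It develops late and is valued in beef for tenderness and flavour, whereas kidney fat is a large visceral store that forms early and, in the newborn calf, holds brown fat. White fat cells take up fatty acids or make them from acetate, store them as triacylglycerol in a lipid droplet, and release them when noradrenaline acts on beta-adrenergic receptors.

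Each array measured probes for bovine transcripts in equal amounts of total RNA, so a level is relative to the RNA of the whole piece of tissue, and in bulk tissue fewer cells of a type cannot be told apart from less RNA per cell. A level is given here as log2 of the signal of a probe after subtraction of the 75th percentile of that array, so that 0 is the level below which 75% of the probes of that array lie, and a difference of 1 is a doubling of signal. Levels of different genes come from different probes and were not compared with each other. On the median IMF array 96.4% of the probes tested were well above background, and on the median Kid array 96.4%. IMF arrays correlated with one another at 0.946 to 0.990 and Kid arrays at 0.927 to 0.987 over all probes.

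The depot label was checked against the other arrays before any result was drawn, by the correlation of each array with the mean of the other arrays of each tissue. The fat cell genes ADIPOQ, PLIN1 and FABP4 were above background on all 12 IMF and all 12 Kid arrays. All 12 IMF arrays were nearest to IMF, and 11 of the 12 Kid arrays were nearest to Kid. The library labelled Kid of a Hereford steer at position 2 of slide 4 was nearer to Inter (0.991) than to Kid (0.983), and the library labelled Inter of an Angus steer at position 3 of the same slide was nearer to Kid (0.982) than to Inter (0.981). HOXA10, a patterning gene, was at -7.67 on that Kid array and between -1.72 and 0.43 on the 11 others, while on that Inter array it was at -1.25, above the -8.37 to -1.75 of the other Inter arrays. SHOX2, another patterning gene, was at -0.06 on the Kid array against -3.61 to -1.84 on the 11 others. DLX5, a homeobox gene, was at -1.11 on the Kid array, within the -1.42 to 0.32 of the 11 others and above the -3.01 to -1.31 of the other Inter arrays. Both arrays were kept under their labels, and results that move without the Kid array are given both ways. The library labelled Omen of an Angus steer at position 3 of slide 19 was about as near to Kid (0.9887) as to Omen (0.9886). Values from the 3 remaining fat depots rest on groups that hold these Inter and Omen arrays. The Hereford Kid array at position 1 of slide 21 stood apart from its group, at a correlation of 0.959 with the mean of the other Kid arrays against 0.980 to 0.991 for the 11 others.

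Arrays of the 2 depots never shared a slide of 4, and the 12 IMF arrays were all scanned on 1 day, on which a single Kid array was also scanned. Scan day and slide therefore cannot be told apart from depot within these 24 arrays, beyond what that Kid array gives.

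Dissected marbling fat carried muscle signal, and how much differed widely between arrays. Probes whose mean over the LD arrays exceeded the Kid mean by more than 2 on the log2 scale were set apart as muscle carry-over, which took 2484 of the 34227 probes (7.26%). For each of these probes the signal of an array was placed on a line from the Kid mean (0%) to the LD mean (100%), and the median over the probes gave the muscle share of that array, a share of signal and not of weight or of cells. It ran from 8.08% to 48.3% over the IMF arrays (median 24.4%), from -0.617% to 1.69% over the Kid arrays and from 72.4% to 118.6% over the LD arrays. The Kid and LD means set 0% and 100% of this scale, so Kid values near 0% follow from its construction. Of the IMF arrays 5 exceeded 40%, which were 3 of Angus, 1 of Hereford and 1 of Wagyu x Angus. The plot of muscle share by depot shows these shares beside those of the other fat depots.

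**Figure D1:**
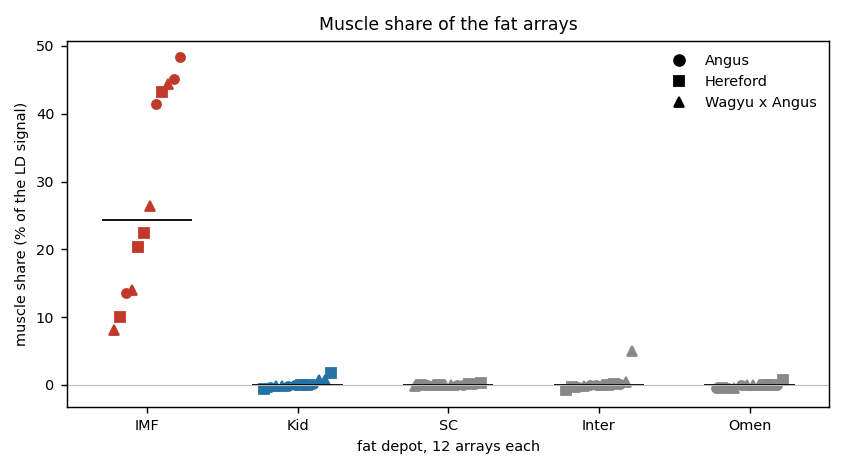
Muscle share of each fat array, in % of the LD signal over the 2484 muscle carry-over probes, for the 12 arrays of each depot (points, shaped by breed) with the median of the depot (line). IMF arrays run from 8.08% to 48.3%, with 5 of them over 40%, and Kid arrays lie between -0.617% and 1.69%.

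Since Kid means helped to choose the muscle probes, what these probes did between IMF and Kid is a description with no test. Of the 2484 probes, 2428 had an IMF mean between the Kid and the LD mean and 55 had one above LD, and their median difference was 1.58. Just inside the limit, the 409 probes whose LD mean exceeded Kid by 2 to 2.2 had a median IMF minus Kid difference of 0.85, and just outside it, the 490 probes between 1.8 and 2 had one of 0.72, so the difference did not step at the limit.

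Differences between the depots were widespread. In a linear model with depot and breed (limma, Benjamini-Hochberg adjusted p under 0.05 over 34227 probes), 19172 probes (56%) passed the test, 9728 (28.4%) higher and 9444 (27.6%) lower in IMF, and 20732 had an unadjusted p under 0.05. With the muscle probes set apart, 7329 of 31743 probes were higher (23.1%) and 9444 were lower (29.8%), and the change exceeded 1 on the log2 scale for 1323 and 2218 of these. The 12 IMF arrays lay wholly above the 12 Kid arrays for 441 probes outside the muscle set (1.39%) and wholly below for 1339 (4.22%). How the calls split by direction depended on the scaling of the arrays. The share of calls that were higher in IMF was 50.7% after scaling to the 75th percentile, 39.5% after quantile normalization, 36.3% after centring on the mean, 58% with another background correction (normexp) and 29.8% in the log2 table of the authors. The median over all probes moved with it, from 0.02 to -0.10, -0.13, 0.09 and -0.19 in the same order, and small differences are to be read against that shift.

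IMF was also compared with LD, the muscle around it. Between IMF and LD 26024 probes passed (76%), and IMF was above both Kid and LD for 2408 probes (7.04%), past the threshold in both comparisons, and below both for 2305 (6.73%). Both counts moved with the scaling, from 1393 with another background correction (normexp) to 2408 above both, and from 131 in the table of the authors to 3733 with mean centring below both. The gene lists below were read by 1 probe per gene, that with the highest mean over the 24 arrays. Over the 10616 genes so named, 2918 were higher (27.5%) and 3592 were lower (33.8%), of which 623 (5.87% of all) and 586 (5.52%) had no overlap between the arrays, with a median difference of -0.05, and each list's count is to be set beside these shares. The rule of the muscle set favours higher members, so lists that hold muscle probes are also given without them, to be set beside the 20.8% higher and 37% lower of the 9696 genes outside the muscle set. With the muscle share of each array in the model, which extrapolates IMF to a tissue with no muscle, 14.4% of these genes were higher and 14.8% lower, without the 5 IMF arrays over 40% muscle 21.2% and 27.4%, and with scan day over all 96 arrays 25.2% and 34.1%. In the table of the authors the shares were 15.1% and 43.2%, with mean centring 20% and 41.8%, with quantile normalization 23.5% and 38.1%, and with normexp 30.3% and 32.6%. The muscle share and depot are nearly collinear, since Kid arrays all lie near 0%. A difference is given as IMF minus Kid on the log2 scale with its standard error (SE) after ±, and its p adjusted by limma over all probes.

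Muscle fibre genes gave the largest differences of all. Of the list for skeletal muscle fibres, 31 genes had a probe, and each of them was in the muscle set and higher in IMF, with a median of 9.50. The mean level of the list ran from 4.86 to 6.85 over the IMF arrays, from -3.85 to -0.79 over the Kid arrays and from 7.18 to 8.13 over the LD arrays. MYH2, the myosin heavy chain of fast oxidative fibres, was at 6.23 to 8.27 (median 7.64) in IMF and -7.58 to -0.87 (median -5.61) in Kid, a difference of 12.27 ± 0.70 (SE). SLN, the sarcolipin that inhibits the calcium pump of the sarcoplasmic reticulum, was at 4.19 to 6.95 (median 6.11) in IMF and -7.85 to -0.86 (median -6.48) in Kid, a difference of 11.43 ± 0.71. The slow troponin TNNT1, the light chain MYL2 and the fast myosin MYH1 differed by 11.18, 11.50 and 11.12. TNNT1 and SLN were above background on 7 and 7 of 12 Kid arrays and MYL2 on all 12, and these 5 genes were taken as the highest of the muscle set among those without overlap of the arrays.

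Respiratory chain genes included both muscle forms and general forms of the same subunits, which moved in opposite directions. Of its 75 genes, 50 were higher and 4 lower in IMF (median 0.46, and outside the muscle set 17 higher and 4 lower of 42, median 0.35), and 33 were in the muscle set. Cytochrome c oxidase has subunits made in a heart and muscle form and in a form of other tissues. Its muscle forms COX6A2, COX8B and COX7A1 differed by 7.71, 3.96 and 3.21. All of them were in the muscle set, whose rule favours higher members, so their direction is not a finding. The forms of other tissues were lower, COX6A1 at 3.04 to 4.32 (median 3.65) in IMF and 4.34 to 5.50 (median 4.90) in Kid (difference -1.21 ± 0.15, adjusted p = 1.07e-06) and COX7A2 at 2.62 to 3.55 (median 3.14) in IMF and 3.83 to 4.94 (median 4.36) in Kid (difference -1.22 ± 0.13, adjusted p = 9.48e-08). COX8A, the third such form, differed by -1.10 ± 0.13 (SE, adjusted p = 4.31e-07), and together with the related COX7A2L (-1.0, named after its value was seen) these were the 4 genes of the list that fell. With the muscle share in the model the list turned to 3 higher and 27 lower (median -0.36), and without the 5 IMF arrays over 40% muscle it gave 14 higher and 5 lower (median 0.14). In the table of the authors the list gave 19 higher and 5 lower (median 0.21), and the arrays of Angus alone gave 59 higher genes, those of Hereford 5 and those of Wagyu x Angus 3, with medians of 0.87, 0.33 and 0.28. Over all genes 20.8%, 12.8% and 9.53% were higher in those fits. The muscle share of the IMF arrays averaged 37.1%, 24% and 23.2% in the same order, and its part in these counts was not tested. COX7A2 was at -0.72 (adjusted p = 0.00774) and COX6A1 at -0.58 (adjusted p = 0.05) in the model with the muscle share. The LD means of COX6A1, COX7A2 and COX8A were 1.87, 2.26 and 2.41, so that IMF lay between Kid and LD for each of them.

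For every gene, the difference that mixing would give was computed from the Kid and LD means and the muscle share of each IMF array. The plot of measured against expected differences shows where 6 lists fall. Skeletal muscle fibre genes had a median expected difference of 9.38 against 9.50 measured, and the respiratory chain 0.78 against 0.46. The muscle share was fitted on the muscle set, which holds all 31 of these fibre genes and 33 of the 75 respiratory chain genes. Closeness of the expected and measured values for muscle genes is therefore built in. Smooth muscle, with 5 of 16 genes in that set, had 0.03 expected and 2.49 measured. Macrophages, with 0 of 16 genes in it, had -0.46 and -2.2. The expected values rest on the same arrays as the measured ones and carry no test.

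**Figure D2:**
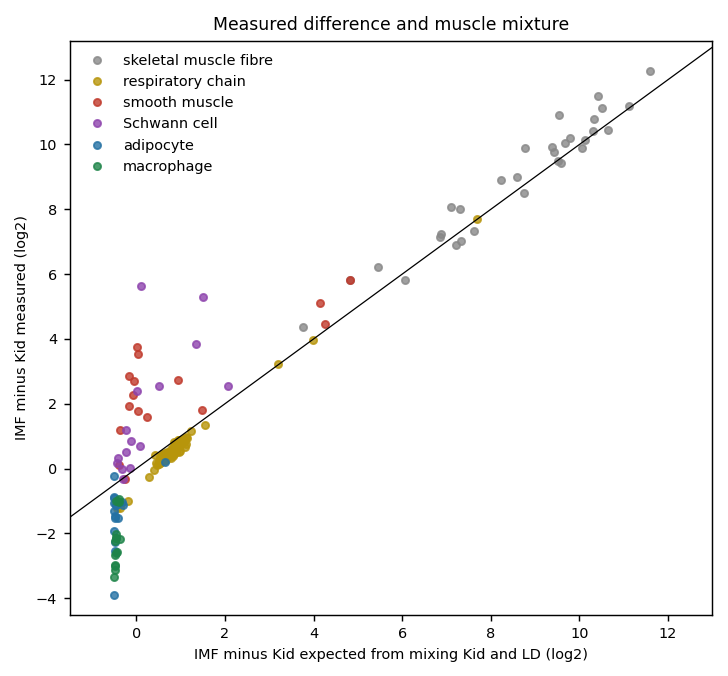
Measured IMF minus Kid difference (log2, vertical) of each gene of 6 lists against the difference expected if each IMF array were Kid mixed with LD at its muscle share (log2, horizontal), 1 point per gene, with the line of equality. The share was fitted on the muscle set, which holds all 31 skeletal muscle genes. Skeletal muscle and most respiratory chain genes lie near the line, smooth muscle and Schwann cell genes reach above it, and most adipocyte and all macrophage genes lie below it, with medians of -1.13 and -2.2 measured against -0.48 and -0.46 expected.

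The 10 highest genes outside the muscle set were taken from those whose IMF and Kid arrays did not overlap and whose IMF mean was above LD, so that neither is a finding about them. CLDN11, a tight junction protein of myelin, was at -2.80 to 0.85 (median -0.25) in IMF and -8.48 to -4.10 (median -5.42) in Kid. The difference was 5.14 ± 0.42 (SE, adjusted p = 1.37e-09), or 35.3-fold. LD averaged -4.44.

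MKX, the transcription factor mohawk of tendon cells, was at -1.87 to 0.34 (median -1.19) in IMF and -7.10 to -3.66 (median -5.53) in Kid and differed by 4.55 ± 0.32 (SE, adjusted p = 1.07e-10), with LD at -3.85. SHOX2, a homeobox gene of limb patterning, was at 0.31 to 2.45 (median 1.57) in IMF and -3.61 to -0.06 (median -2.80) in Kid and differed by 4.02 ± 0.34 (SE, adjusted p = 2.17e-09). The highest Kid value of SHOX2 was that of the Kid array nearest to Inter, without which the difference was 4.26. INHBA, the subunit of activin A, was at -0.24 to 2.92 (median 1.98) in IMF and -2.99 to -1.36 (median -2.34) in Kid and differed by 3.76 ± 0.30 (SE, adjusted p = 7.11e-10). The LD means of SHOX2 and INHBA were -1.37 and -1.39.

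CNN1, the calponin of smooth muscle, was at 3.83 to 7.83 (median 5.47) in IMF and -0.08 to 3.82 (median 2.06) in Kid (difference 3.74 ± 0.42, adjusted p = 1.73e-07). RAMP3, which pairs with the calcitonin receptor-like receptor to bind adrenomedullin, was at -0.39 to 1.54 (median 0.84) in IMF and -5.44 to -1.63 (median -2.78) in Kid (difference 3.77 ± 0.35, adjusted p = 7.98e-09). IGFBP1, a secreted binder of insulin-like growth factors, rose by 3.96 ± 0.42 from a Kid level that was above background on 3 of 12 arrays. The other 3 were C1QL3 (4.24), a secreted protein with a C1q domain, LGI2 (3.96, over 11 IMF arrays) and ACTRT2 (3.71). With the muscle share in the model, CLDN11 was at 6.42 (adjusted p = 3.44e-07), SHOX2 at 5.38 (adjusted p = 3.28e-08), MKX at 4.53 (adjusted p = 6.24e-06) and INHBA at 3.05 (adjusted p = 1.30e-04).

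**Figure D3:**
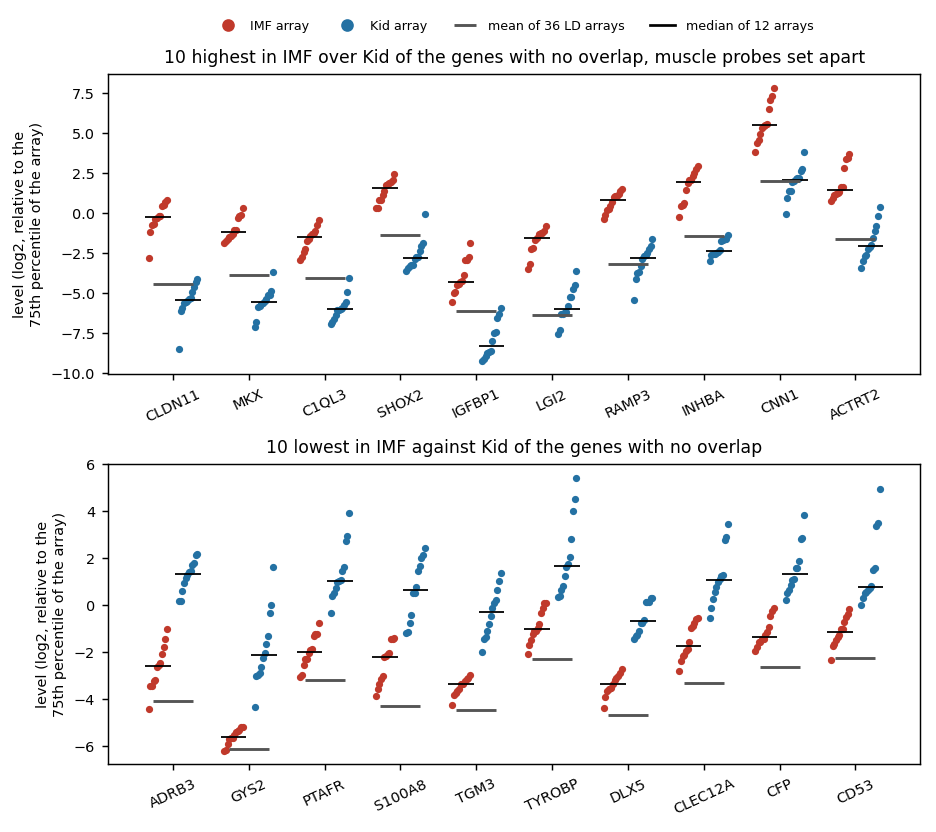
Levels (log2, relative to the 75th percentile of the array, vertical) of the 10 highest genes outside the muscle set with an IMF mean above LD and the 10 lowest, both among genes without overlap of the IMF and Kid arrays (horizontal), with 1 point per array set side by side in order of value, the median of each group (black line) and the LD mean (grey line). For CLDN11 and SHOX2 the LD mean lies below all 12 IMF points.

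The same arrays in the plot of the 20 genes show the spread behind each difference, which was widest in Kid for GYS2, TYROBP and CD53.

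Genes of Schwann cells, which wrap the axons of peripheral nerves, were higher in IMF. Of 15 genes of the list, 9 rose and none fell (median 0.86, and outside the muscle set 6 higher and 0 lower of 12, median 0.61). PMP2, the lipid carrier of peripheral myelin, was at -6.06 to 3.44 (median -0.04) in IMF and -8.30 to -4.63 (median -5.55) in Kid, and the difference was 5.64 ± 0.90 (SE, adjusted p = 1.71e-05). The IMF arrays spanned a wide range, and 11 of the 12 lay above all Kid arrays. MBP, a myelin protein in the muscle set, differed by 3.86, while SOX10, the transcription factor of the lineage, was at -6.33 to -1.48 (median -4.12) in IMF and -5.80 to -3.81 (median -4.32) in Kid and did not pass the test (0.51 ± 0.46, adjusted p = 0.358). The PMP2 difference of Angus was 2.96, that of Hereford 6.01 and that of Wagyu x Angus 7.94, and the depot by breed term was not past the threshold for PMP2 (adjusted p = 0.55). With the muscle share in the model 14 genes of the list rose (median 2.41), and without the 5 IMF arrays over 40% muscle 11 (median 1.64). The list gave 2 higher genes in Angus alone (median 0.33, beside 20.8% of all genes), 4 in the Hereford fit (median 1.35) and 7 in that of Wagyu x Angus (median 1.40).

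Smooth muscle genes, which mark the walls of arteries and veins, also stood higher. The count was 14 higher and 0 lower of 16 (median 2.49, and outside the muscle set 9 higher and 0 lower of 11, median 1.92), and 5 of them, DES, PLN, ACTG2, LMOD1 and SYNPO2, were in the muscle set, the first 2 being genes of striated muscle too. MYH11, the smooth muscle myosin heavy chain, was at 3.96 to 7.63 (median 5.49) in IMF and 0.62 to 3.91 (median 2.18) in Kid and differed by 3.53 ± 0.38 (SE, adjusted p = 8.43e-08). ACTA2, smooth muscle actin, was at 5.34 to 8.48 (median 6.87) in IMF and 3.21 to 5.25 (median 4.30) in Kid and differed by 2.70 ± 0.28 (SE, adjusted p = 5.94e-08). Neither gene overlapped between the groups, and their LD means of 2.28 and 4.02 stood beside Kid means of 2.14 and 4.22. Endothelial genes, of the inner lining of the same vessels, gave 1 higher and 7 lower of 18 (median -0.42), beside 33.8% lower over all genes. The number lower was 10 with quantile normalization, 12 with mean centring, 13 in the table of the authors and 12 without the Kid array that stood apart. PECAM1 was 3.25 ± 0.37 in IMF and 3.1 ± 0.46 in Kid (SD, n = 12 each) and did not pass (difference 0.15 ± 0.17, adjusted p = 0.487), whereas CDH5, the junction protein VE-cadherin, fell by 0.88 (adjusted p = 9.23e-06). In the model with the muscle share 2 endothelial genes were higher and 1 lower.

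Connective tissue of tendon type and of the sheaths around muscle bundles showed in 11 higher and 1 lower of 14 genes (median 1.89, and outside the muscle set 8 higher and 1 lower of 11, median 0.98). The list gave 7 higher and 0 lower (median 1.86) with the muscle share in the model. TNMD (tenomodulin, of tendon) and KERA (keratocan, a proteoglycan) were in the muscle set and differed by 6.96 and 5.29, above background on 4 of 12 Kid arrays for TNMD and on 9 of 12 Kid arrays for KERA, and their IMF means of 0.00 and -0.57 exceeded the LD means of -2.64 and -2.06. Within the wider list of matrix and matrix-remodelling genes the directions were split, 15 higher and 10 lower of 38 (median 0.08, and -0.07 with mean centring and -0.18 in the table of the authors). COL4A6, a basement membrane collagen chain, was at -0.91 to 1.8 (median -0.02) in IMF and -4.63 to -2.12 (median -3.43) in Kid and differed by 3.50 ± 0.32 (SE, adjusted p = 7.64e-09), and its neighbour chain COL4A5 by 2.91 ± 0.30 (SE, adjusted p = 5.47e-08). FBN2, fibrillin 2, differed by 3.20 over 11 IMF arrays (adjusted p = 5.94e-06). The lowest members were the proteases MMP19 (-3.35 ± 0.69, adjusted p = 3.02e-04) and MMP9 (-2.67 ± 0.76, adjusted p = 0.0048) and the inhibitor TIMP4 (-1.47 ± 0.21, adjusted p = 5.82e-06). MMP19 was at -2.04 to 0.23 (median -1.01) in IMF and -0.38 to 6.43 (median 2.2) in Kid, so that its Kid values spread over a far wider range than its IMF values, and the difference was -2.95 without the Kid array that stood apart. Leaving out the 5 IMF arrays rich in muscle changed the matrix count to 16 higher and 5 lower, and the muscle share as a covariate to 17 and 1.

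Mesothelium, the layer that covers visceral fat, was read by 12 genes, of which 6 were higher and 2 lower in IMF. Of its defining genes, MSLN was at -6.55 to -4.80 (median -5.36) in IMF and -8.14 to -4.51 (median -5.72) in Kid and differed by 0.50 ± 0.33 (SE, adjusted p = 0.213), which did not pass the test. UPK3B differed by -0.19 ± 0.11 (SE, adjusted p = 0.172) on its brightest probe and by 0.57 (adjusted p = 0.00276) on another of its 3, so its direction is not given. KRT18, a keratin of simple epithelia, was highest of the list over Kid, at -3.45 to 3.78 (median 0.15) in IMF and -5.36 to -2.26 (median -4.49) in Kid. The difference was 4.80 ± 0.72 (SE, adjusted p = 7.68e-06), and 10 of 12 IMF arrays exceeded all Kid arrays. KRT19, a keratin of mesothelium, differed by 0.66 ± 0.13 (SE, adjusted p = 1.98e-04).

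Kidney and adrenal genes were read as markers of the organs that lie within kidney fat. Of 6 kidney genes with a probe, 2 were higher and 1 lower in IMF. CDH16, the kidney-specific cadherin, was above background on 3 of 12 Kid arrays and on 12 of 12 IMF arrays (difference 2.43 ± 0.43, adjusted p = 5.58e-05), and AQP2, the water channel of the collecting duct, differed by -0.26 ± 0.11 (SE, adjusted p = 0.049), with its 2 probes past the threshold in opposite directions, so its direction is not given. The adrenal list gave 4 higher and 2 lower of 12 (median 0.26, and outside the muscle set 3 higher and 2 lower of 11, median 0.12). TH, the enzyme that makes the catecholamine precursor, differed by 0.05 ± 0.09 (SE, adjusted p = 0.685), and MC2R, the receptor of corticotropin, by 2.32 ± 0.38 (SE, adjusted p = 2.01e-05). STAR, the cholesterol carrier of steroid synthesis, fell by 1.30 (adjusted p = 0.00775). STAR was at -3.00 to -2.09 (median -2.28) in IMF and -2.54 to 1.71 (median -1.48) in Kid, and 2 IMF arrays lay below all Kid arrays.

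Transcription factors that pattern the embryo, and that stay on in adult tissue by position, differed between the depots, while the HOX list as a group had a median near 0. Of 33 patterning factors outside the HOX clusters, 17 rose and 4 fell (median 0.45, and outside the muscle set 12 higher and 4 lower of 28, median 0.24). EYA4, which acts in muscle precursors, was in the muscle set and differed by 5.27, with LD above IMF and a Kid level above background on 7 of 12 arrays. DLX5, a homeobox gene of bone and limb, went the other way, at -4.37 to -2.70 (median -3.34) in IMF and -1.42 to 0.32 (median -0.68) in Kid (difference -2.86 ± 0.25, adjusted p = 5.31e-09 over 11 IMF arrays). EMX2, a homeobox gene of the urogenital tract and brain that was named after its value was seen, was at -0.21 to 0.92 (median 0.50) in IMF and -3.64 to -0.05 (median -1.83) in Kid and differed by 2.30 ± 0.37 (SE, adjusted p = 2.04e-05). IRX5 and IRX3, Iroquois homeobox genes, fell by 1.07 (adjusted p = 0.00319) and 0.60 (adjusted p = 0.00683).

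Of 18 HOX genes, 5 rose and 3 fell, and the median of 0.06 was -0.14 after quantile normalization, -0.09 after mean centring, -0.17 in the table of the authors and -0.05 without the Kid array that stood apart. The counts turned too, to 3 higher and 5 lower with mean centring and to 1 and 5 in the table of the authors. HOXA3 and HOXD4 were the highest at 0.90 ± 0.25 (SE, adjusted p = 0.00422) and 0.61 ± 0.17 (SE, adjusted p = 0.0041), and HOXC10, of the hind part of the body, the lowest of those past the threshold at -1.06 ± 0.27 (SE, adjusted p = 0.00236). HOXA10, named after its value was seen, was at -3.18 to -1.11 (median -2.43) in IMF and -7.67 to 0.43 (median -0.27) in Kid and differed by -1.33 ± 0.62 (SE, adjusted p = 0.0724), which did not pass. Its lowest Kid value was that of the array nearest to Inter, and without this array the difference was -1.93 (adjusted p = 2.60e-06). HOXC10 was -1.24 (adjusted p = 1.09e-04) without it, and DLX5 -2.92.

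IMF and Kid were each set beside the mean of the other 3 fat depots, a mean that averages over depots which differ among themselves. Against the mean of SC, Inter and Omen in a model of the 60 fat arrays, 22733 probes passed for IMF (66.4%) and 9125 for Kid (26.7%), and both comparisons share those 36 arrays. The counts moved with the scaling, to 17482 and 13506 in the table of the authors and 20051 and 11824 with normexp. Without the Kid, Inter and Omen arrays nearest to another depot the counts were 22696 and 10262. For SHOX2 the difference from the 3 depots was 2.03 (adjusted p = 4.56e-11) in IMF and -1.99 (adjusted p = 6.25e-09) in Kid. For EMX2 it was 0.30 (adjusted p = 0.268) in IMF and -2.0 (adjusted p = 1.12e-08) in Kid, and for DLX5 -1.27 (adjusted p = 9.45e-09) and 1.59 (adjusted p = 1.50e-09). For MKX the values were 3.65 (adjusted p = 6.01e-11) and -0.90 (adjusted p = 0.106), and for CLDN11 2.92 (adjusted p = 1.02e-12) and -2.22 (adjusted p = 1.05e-07). The mean hides such differences for SHOX2, whose level averaged 1.03 in SC, 0.19 in Inter and -3.13 in Omen, against 1.40 in IMF and -2.62 in Kid. By these means, not tested against one another, Kid lay above Omen and IMF close to SC, as the plot of 12 genes over the tissues shows.

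**Figure D4:**
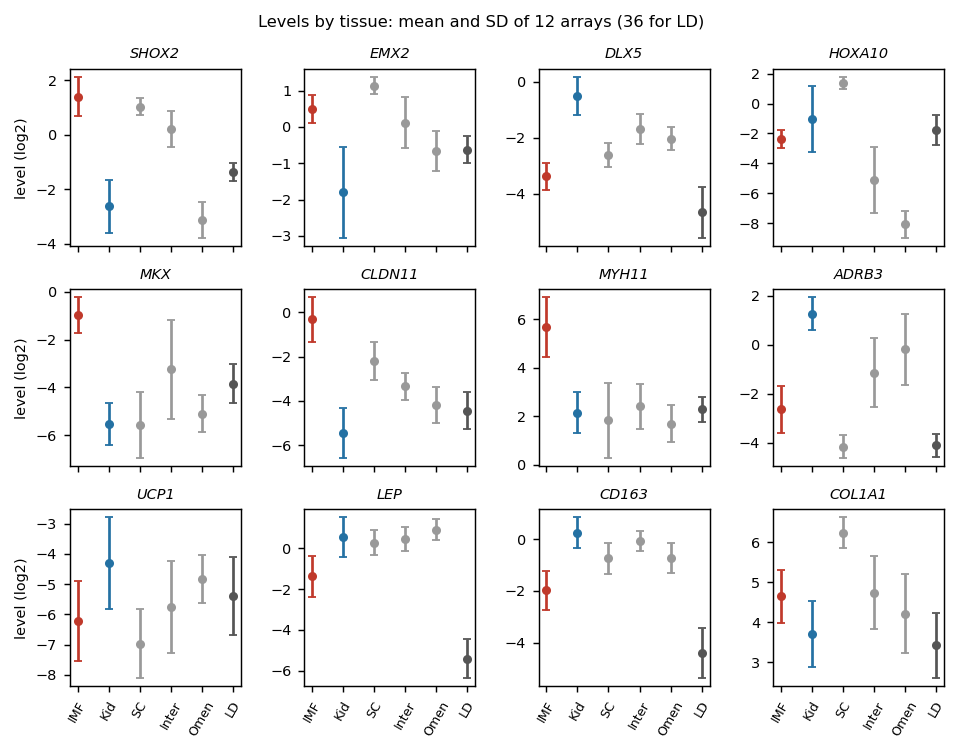
Levels (log2, relative to the 75th percentile of the array, vertical) of 12 genes in the 5 fat depots and LD (horizontal), as the mean and SD of 12 arrays (36 for LD). SHOX2 is low in Kid and Omen, MYH11 is highest in IMF, ADRB3 is highest in Kid and lowest in SC and LD, and the wide bar of HOXA10 in Kid holds the array at -7.67.

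Other genes in that plot belong to vessels, fat cells, macrophages and collagen. MYH11 stood 3.70 (adjusted p = 3.59e-14) from the 3 depots in IMF and 0.17 (adjusted p = 0.748) in Kid, and LEP -1.92 (adjusted p = 6.57e-10) and -0.01 (adjusted p = 0.99). CD163 was -1.47 (adjusted p = 3.38e-10) in IMF and 0.76 (adjusted p = 0.00104) in Kid, and UCP1 -0.36 (adjusted p = 0.462) and 1.54 (adjusted p = 0.0051). COL1A1, the main chain of fibrillar collagen, named after its value was seen, was -0.42 (adjusted p = 0.152) in IMF and -1.36 (adjusted p = 7.08e-05) in Kid, and differed between IMF and Kid by 0.94 ± 0.30 (SE, adjusted p = 0.0107).

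In the WNT and the TGF-beta families, more genes rose than fell in IMF. The WNT list gave 10 higher and 1 lower of 18 (median 1.20, and outside the muscle set 7 higher and 1 lower of 15, median 0.37), and with the muscle share in the model 9 higher and 0 lower (median 0.78). RSPO2, which amplifies WNT signals, and DKK1, which blocks them, were in the muscle set and differed by 5.22 and 2.85. WNT6, a ligand that restrains fat cell formation, was at -4.10 to 1.02 (median -1.90) in IMF and -5.96 to -3.86 (median -4.97) in Kid, a difference of 3.24 ± 0.54 (SE, adjusted p = 2.57e-05), and 11 of 12 IMF arrays exceeded all Kid arrays. FZD4, a receptor, was the single gene of the list that fell (-1.05 ± 0.23, adjusted p = 5.85e-04).

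Of the TGF-beta and BMP genes 10 of 18 rose and none fell (median 0.58, and outside the muscle set 9 higher and 0 lower of 17, median 0.53), and in the table of the authors 6 rose and none fell. TGFB3, a ligand, was at 1.17 to 3.75 (median 1.79) in IMF and -1.5 to 0.13 (median -0.44) in Kid and differed by 2.47 ± 0.23 (SE, adjusted p = 1.24e-08), with no overlap. NOG, noggin, which binds BMPs, differed by 1.70 ± 0.35 (SE, adjusted p = 2.79e-04). Against the other 3 fat depots, INHBA was at 3.39 (adjusted p = 8.17e-15) in IMF and -0.37 (adjusted p = 0.372) in Kid, and NOG at -0.21 (adjusted p = 0.483) and -1.91 (adjusted p = 2.22e-07).

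The insulin-like growth factor list gave 6 higher and 1 lower of 15 (median 0.23, and outside the muscle set 5 higher and 1 lower of 14, median 0.16, and over the whole list 4 higher and 4 lower with a median of -0.06 in the table of the authors). After IGFBP1 came the receptor IGF1R, in the muscle set, at 1.76 and the binding protein IGFBP6 at 1.25 ± 0.34 (SE, adjusted p = 0.00359), and IGFBP4 fell by 0.77 (adjusted p = 0.00161). Of the imprinted growth genes 7 of 19 rose and 2 fell (median 0.32, and outside the muscle set 4 higher and 2 lower of 15, median 0.10). GRB10 and H19, in the muscle set, differed by 2.0 and 1.64, and CDKN1C, a brake on the cell cycle, fell by 1.33 (adjusted p = 8.86e-04). DLK1, the preadipocyte factor, is not given a direction, since 4 of its 5 probes were lower past the threshold while the brightest differed by 0.32 ± 0.26 (SE, adjusted p = 0.317).

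Fat cell genes were lower in IMF. Of 17 adipocyte genes 15 fell and none rose (median -1.13). ADRB3, the beta-3 adrenergic receptor that triggers lipolysis, was at -4.41 to -1.02 (median -2.58) in IMF and 0.17 to 2.16 (median 1.35) in Kid. The difference of -3.89 ± 0.34 (SE, adjusted p = 3.10e-09) made IMF 14.8-fold lower, and like the other 9 lowest genes named it was taken from those without overlap of the arrays. The difference expected from mixing with muscle was -0.49, and with the muscle share in the model the difference was -3.19 (adjusted p = 3.51e-04). Against SC, Inter and Omen the IMF level was -0.81 (adjusted p = 0.0308) and the Kid level 3.07 (adjusted p = 1.80e-09).

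LEP, the hormone leptin, was at -3.46 to 0.00 (median -1.40) in IMF and -0.76 to 1.67 (median 0.67) in Kid, a difference of -1.92 ± 0.33 (SE, adjusted p = 4.11e-05), and 9 of 12 IMF arrays lay below all Kid arrays. ADIPOQ, adiponectin, differed by -1.31 ± 0.25 (SE, adjusted p = 1.34e-04) and PLIN1, the coat protein of the lipid droplet, by -1.05 ± 0.27 (SE, adjusted p = 0.00226). FABP4, the fatty acid carrier that is among the most abundant fat cell transcripts, was at 6.91 to 8.30 (median 7.97) in IMF and 7.44 to 8.68 (median 8.03) in Kid on its brightest probe, which did not pass the test (-0.23 ± 0.14, adjusted p = 0.182). Its other probe fell by 1.76 ± 0.25 on the log2 scale (adjusted p = 4.55e-06), so the probes disagree and no call is made for the gene. With all 96 arrays and scan day in the model, the brightest probe of FABP4 was at -1.65 (adjusted p = 0.00404).

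With the muscle share in the model 4 adipocyte genes were past the threshold as lower (median -0.47), with LEP at -0.81 (adjusted p = 0.248), ADIPOQ at -0.19 (adjusted p = 0.704) and PLIN1 at 0.12 (adjusted p = 0.836). Without the 5 IMF arrays over 40% muscle 11 of 17 were lower (median -0.87), and with scan day over all 96 arrays 16 (median -1.98). CIDEA, which fuses lipid droplets, was at 0.33 to 2.80 (median 2.07) in IMF and 2.81 to 4.92 (median 4.35) in Kid without overlap (difference -2.26 ± 0.25, adjusted p = 1.15e-07), and at -1.46 (adjusted p = 0.00805) with the muscle share. LIPA, the lysosomal acid lipase, was at -0.87 to 1.05 (median 0.16) in IMF and 0.78 to 6.21 (median 2.46) in Kid (difference -2.55 ± 0.57, adjusted p = 6.74e-04), with the wider spread in Kid.

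Genes that make fatty acids followed. The count was 2 higher and 14 lower of 17 (median -1.20, and outside the muscle set 1 higher and 14 lower of 16, median -1.20), and with the muscle share in the model it was 2 higher and 2 lower (median -0.40). THRSP, a nuclear protein that drives lipogenesis, was at 0.94 to 5.70 (median 3.78) in IMF and 4.65 to 7.32 (median 6.56) in Kid, a difference of -2.59 ± 0.38 (SE, adjusted p = 6.57e-06). ACSS2, which activates acetate, the chief carbon source for fat in ruminants, fell by 1.99 (adjusted p = 4.97e-05), and the elongase ELOVL6 by 1.88 (adjusted p = 4.91e-05). The 2 genes that rose were ACACB (4.74, in the muscle set, above background on 8 of 12 Kid arrays), the carboxylase that regulates fatty acid entry into mitochondria, and FADS2 (1.20 ± 0.12, adjusted p = 2.32e-08), the delta-6 desaturase. FADS2 was at -0.83 to 0.75 (median 0.10) in IMF and -1.57 to -0.86 (median -1.22) in Kid, without overlap. THRSP was at -1.56 (adjusted p = 0.0679) with the muscle share.

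Triacylglycerol synthesis gave 1 higher and 12 lower of 17 (median -0.75, and outside the muscle set 0 higher and 12 lower of 15, median -0.76), and with the muscle share 1 higher and 4 lower (median -0.70). GPAT3, an acyltransferase of the first step, was at 1.22 to 3.19 (median 1.63) in IMF and 2.55 to 4.76 (median 4.20) in Kid (difference -2.17 ± 0.21, adjusted p = 2.18e-08). PCK2 and PCK1, which supply the glycerol backbone, fell by 2.01 (adjusted p = 5.22e-06) and 1.95 (adjusted p = 2.05e-04), and FITM1, a lipid droplet protein of muscle in the muscle set, differed by 2.08. Against the other 3 fat depots GPAT3 was at -0.32 (adjusted p = 0.155) in IMF and 1.85 (adjusted p = 1.38e-09) in Kid, while PCK2 was at -2.14 (adjusted p = 2.84e-12) and -0.14 (adjusted p = 0.691). Of lipolysis and lipid droplet genes 2 rose and 15 fell of 20 (median -1.08). The list gave 0 higher and 4 lower with the muscle share, and 0 higher and 12 lower without the 5 IMF arrays over 40% muscle. The 2 that rose in the first fit were PLIN5, a lipid droplet protein of oxidative tissue (0.77 ± 0.18, adjusted p = 0.0011), and ADRB1, the beta-1 adrenergic receptor (0.39 ± 0.11, adjusted p = 0.00356). The LD mean of ADRB1 was -2.09, above the IMF mean of -2.69 and the Kid mean of -3.08. PRKAR2B, a regulatory subunit of protein kinase A, fell by 1.96 (adjusted p = 4.17e-07).

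Of fatty acid uptake genes 4 rose and 8 fell of 13, and outside the muscle set 1 higher and 8 lower of 10, median -0.75. The list gave 1 higher and 4 lower (median 0.00) with the muscle share in the model, and without the 5 IMF arrays over 40% muscle the median was -0.15. FABP5, the carrier of skin and fat, was at 2.42 to 4.26 (median 3.27) in IMF and 4.97 to 6.53 (median 6.0) in Kid (difference -2.53 ± 0.19, adjusted p = 2.34e-10), and CD36, the membrane transporter, at 3.22 to 5.10 (median 4.18) in IMF and 5.44 to 5.95 (median 5.76) in Kid (difference -1.52 ± 0.13, adjusted p = 3.26e-09), neither with overlap. FABP3, the carrier of heart and muscle, was in the muscle set and differed by 4.07. FABP5 was at -2.06 (adjusted p = 5.06e-05) and CD36 at -0.90 (adjusted p = 3.84e-04) with the muscle share in the model. GYS2, a glycogen synthase of liver and fat, was at -6.18 to -5.17 (median -5.59) in IMF and -4.34 to 1.65 (median -2.13) in Kid and differed by -3.79 ± 0.45 (SE, adjusted p = 3.82e-07). Its Kid values spread widely (difference -4.01 without the Kid array that stood apart), while the IMF arrays lay close together, with an LD mean of -6.11.

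Cholesterol synthesis gave 2 higher and 15 lower of 20 (median -0.89), and 0 higher and 5 lower (median -0.50) with the muscle share. SQLE, squalene epoxidase, was at -0.92 to 1.69 (median 0.38) in IMF and 1.40 to 3.08 (median 2.01) in Kid (difference -1.69 ± 0.25, adjusted p = 6.52e-06), and CYP51A1, lanosterol demethylase, differed by -1.48 ± 0.20 (SE, adjusted p = 1.50e-06). Against the other 3 fat depots SQLE was at -0.52 (adjusted p = 0.0142) in IMF and 1.17 (adjusted p = 5.85e-06) in Kid. Mitochondrial oxidation of fatty acids gave 2 higher and 12 lower of 20 (median -0.48), and 1 higher and 13 lower (median -0.65) with the muscle share. DECR1, ACADL and ACAA2, enzymes of that pathway, fell by 1.52, 1.37 and 1.13 (adjusted p = 1.17e-05, 1.28e-06 and 1.83e-06), and their IMF means stood beside LD means of 0.94, -0.53 and 4.08 at 1.08, -0.86 and 4.22.

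CH25H, which makes 25-hydroxycholesterol, rose among the oxysterol and retinoid genes (2 higher and 8 lower of 19, median -0.40, and 3 higher and 1 lower, median -0.29, with the muscle share). CH25H was at 1.20 to 3.68 (median 2.71) in IMF and -0.93 to 1.58 (median -0.06) in Kid, a difference of 2.52 ± 0.29 (SE, adjusted p = 2.37e-07), and 11 of 12 IMF arrays exceeded all Kid arrays. The LD mean was -1.32, and with the muscle share the difference was 2.96 (adjusted p = 2.13e-04). CYP27A1, which makes 27-hydroxycholesterol, moved the other way, at 1.31 to 2.60 (median 2.11) in IMF and 2.74 to 5.81 (median 3.32) in Kid (difference -1.64 ± 0.29, adjusted p = 6.44e-05), and RARRES1, a retinoic acid response gene, fell by 2.52 (adjusted p = 6.67e-05).

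Brown and beige fat genes moved in both directions (7 higher and 4 lower of 16, median 0.23, and outside the muscle set 1 higher and 4 lower of 10, median -0.77, and over the whole list -0.02 in the table of the authors). UCP1, the uncoupling protein of brown fat, was at -7.90 to -4.33 (median -5.96) in IMF and -6.19 to -1.99 (median -4.79) in Kid, and was above background on 7 of 12 IMF and 11 of 12 Kid arrays. The difference was -1.90 ± 0.54 (SE, adjusted p = 0.00473), with -0.71 among Angus, -1.11 among Hereford and -3.88 among Wagyu x Angus steers, and the depot by breed term was not past the threshold (adjusted p = 0.462). UCP3, the related carrier of muscle, was in the muscle set and differed by 6.52. DIO2, which activates thyroid hormone, was in the muscle set with a difference of 3.87, a Kid level above background on 5 of 12 Kid arrays, and an IMF mean of -3.13 above the LD mean of -4.45. GK, glycerol kinase, fell by 2.12 (adjusted p = 1.34e-04).

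Macrophage genes were lower in IMF. All 16 genes of the list fell (median -2.2), against a median of -0.46 expected from mixing with muscle. The mean level of the list ran from -1.28 to 0.77 over the IMF arrays and from 0.66 to 3.15 over the Kid arrays. CD163, the scavenger receptor of resident macrophages, was at -3.48 to -0.62 (median -1.83) in IMF and -0.46 to 1.49 (median 0.16) in Kid without overlap, a difference of -2.24 ± 0.25 (SE, adjusted p = 1.45e-07). TYROBP, an adaptor of immune receptors, was at -2.06 to 0.10 (median -1.02) in IMF and 0.34 to 5.42 (median 1.69) in Kid, also without overlap (-3.02 ± 0.53, adjusted p = 4.87e-05). MSR1, a scavenger receptor, was at -3.76 to -1.25 (median -2.68) in IMF and -1.65 to 4.34 (median 0.39) in Kid (-3.34 ± 0.56, adjusted p = 3.42e-05), CD14, the co-receptor of endotoxin, differed by -3.13 ± 0.44 (SE, adjusted p = 3.43e-06) and CSF1R, the growth factor receptor of the lineage, by -2.14 ± 0.30 (SE, adjusted p = 2.85e-06).

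Without the Kid array that stood apart all 16 were lower past the threshold (median -2.15). With the muscle share in the model 9 of the 16 were past the threshold (median -2.08), with CD163 at -2.12 (adjusted p = 0.00141), CSF1R at -1.75 (adjusted p = 0.0158), CD14 at -2.41 (adjusted p = 0.0226), TYROBP at -2.35 (adjusted p = 0.0627) and MSR1 at -2.62 (adjusted p = 0.0533). Other leukocyte genes were among the 10 lowest of the genes without overlap, a limit that leaves out MSR1 and CD14. S100A8, the calgranulin of neutrophils, was at -3.84 to -1.40 (median -2.19) in IMF and -1.19 to 2.42 (median 0.64) in Kid (-3.13 ± 0.43, adjusted p = 2.83e-06), and its lowest Kid value was that of the array nearest to Inter, without which the difference was -3.32. PTAFR, the platelet-activating factor receptor, CLEC12A, a myeloid lectin, and CD53, a leukocyte tetraspanin, fell by 3.37, 2.77 and 2.68, and CFP, properdin of the complement system, by 2.74. TGM3, a transglutaminase, completed the 10 at -3.11 over 11 IMF arrays.

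Chemokines gave 3 higher and 14 lower of 22 (median -1.02, and outside the muscle set 2 higher and 14 lower of 21, median -1.14), and 3 higher and 3 lower (median -0.75) with the muscle share. CCL2, which draws monocytes, was at -0.48 to 2.70 (median 1.01) in IMF and 0.79 to 4.92 (median 3.56) in Kid (difference -2.27 ± 0.42, adjusted p = 9.78e-05), and CCL11, which draws eosinophils, at -8.91 to -4.16 (median -6.81) in IMF and -8.63 to -1.91 (median -3.96) in Kid (difference -2.46 ± 0.62, adjusted p = 0.00183, above background on 4 of 12 IMF arrays). The 3 that rose were CXCL14 (3.98, in the muscle set), CCL26 (3.00 ± 0.40, adjusted p = 1.99e-06) and CCL21 (2.24 ± 0.49, adjusted p = 5.76e-04). Complement gave 1 higher and 8 lower of 19 (median -0.34), and 6 higher and 4 lower (median 0.46) with the muscle share. CFD, which is also the fat cell product adipsin, fell by 1.5 (adjusted p = 5.26e-09), and C6 rose by 1.21 (adjusted p = 8.90e-05).

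Among lymphocyte genes, the T cell list had 3 higher and 8 lower of 14 (median -0.38, and outside the muscle set 2 higher and 8 lower of 13, median -0.42). It had 0 higher and 3 lower (median -0.48) with the muscle share in the model. CD6, in the muscle set, differed by 1.74, and CD4 rose by 0.54 ± 0.12 (SE, adjusted p = 8.15e-04), with an LD mean of 5.78 above the IMF mean of 4.78. CD3E, of the receptor complex, was at -3.00 to -1.67 (median -2.40) in IMF and -2.43 to -0.28 (median -1.13) in Kid (-1.07 ± 0.20, adjusted p = 1.10e-04). CD3D, of the same complex, differed by 0.25 ± 0.10 (SE, adjusted p = 0.0409) on its brightest probe and by -1.28 on another, so its direction is not given. The B cell list had 2 higher and 4 lower of 9 (median -0.36), and its defining genes CD79A and MS4A1 did not pass (-0.11 ± 0.11, adjusted p = 0.418 and -0.26 ± 0.25, adjusted p = 0.391), while CR2 and BLNK fell by 2.39 and 2.43 (adjusted p = 6.26e-07 and 1.46e-04). Interferon-stimulated genes gave 0 higher and 14 lower of 21 (median -0.85), which became 0 and 5 without the 5 IMF arrays over 40% muscle, 1 and 0 with the muscle share, and 0 and 4 with scan day over all 96 arrays. ISG15, a ubiquitin-like protein, differed by -1.62 ± 0.47 (SE, adjusted p = 0.00608) and by -0.84 (adjusted p = 0.122) in the last of these.

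**Figure D5:**
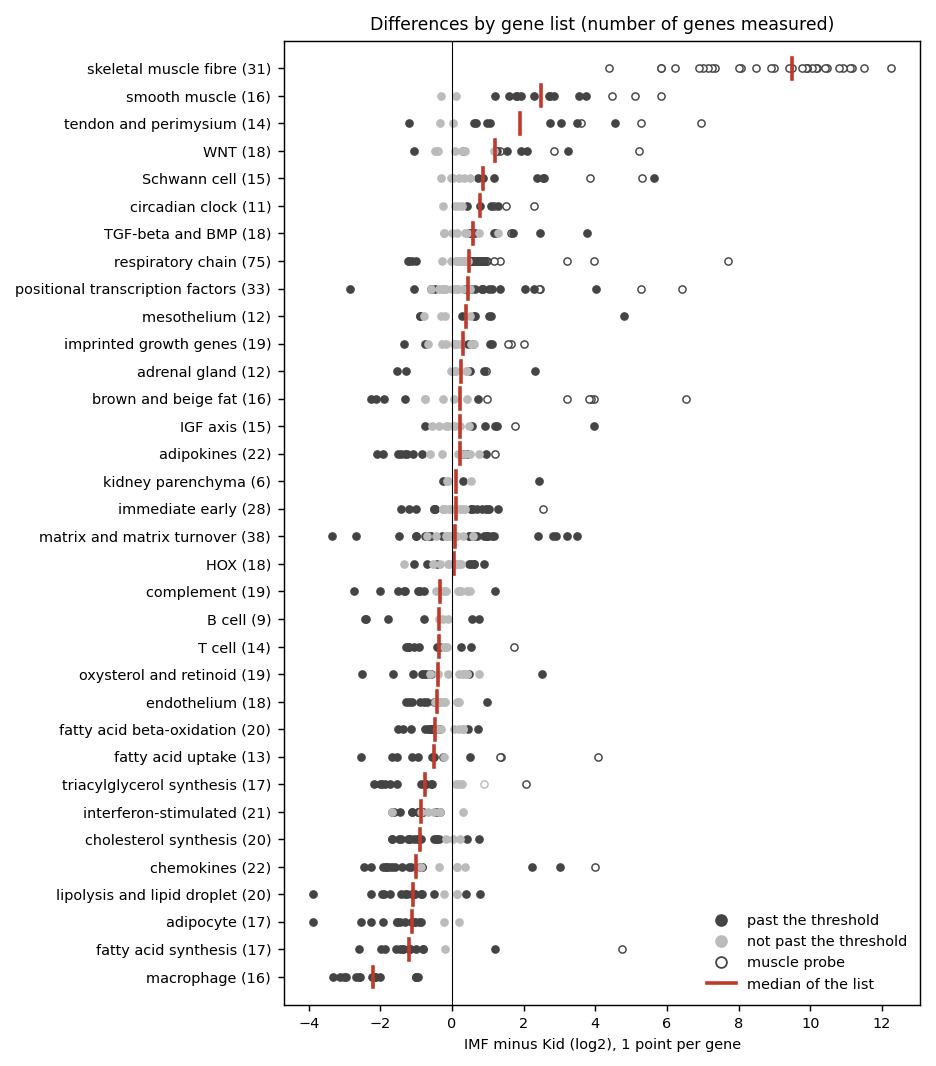
IMF minus Kid difference (log2, horizontal) of each gene of the 34 lists (vertical, with the number of genes measured), 1 point per gene, dark where past the threshold, pale where not and open where set apart as a muscle probe, with the median of the list in red. Skeletal muscle fibre lies farthest right at 9.50 and macrophage farthest left at -2.2. Medians near 0 change sign with the scaling, as for HOX, matrix, kidney parenchyma and immediate early genes.

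Of the remaining lists, adipokines and immediate early genes moved in both directions, while circadian clock genes past the threshold were all higher. The plot of all 34 lists sets them side by side. Adipokines gave 6 higher and 8 lower of 22 (median 0.21, and outside the muscle set 5 higher and 8 lower of 21, median 0.17, and over the whole list -0.07 in the table of the authors), with IL6, an inflammatory cytokine, at -2.09 ± 0.48 (SE, adjusted p = 8.29e-04), and NPY, the neuropeptide, at 0.96 ± 0.23 (SE, adjusted p = 0.00121). Immediate early genes, which respond within minutes to handling and stress, gave 10 higher and 7 lower of 28 (median 0.10, and outside the muscle set 9 higher and 7 lower of 27, median 0.07, and over the whole list -0.03, -0.06 and -0.18 with quantile normalization, mean centring and the table of the authors). The immediate early list gave 7 higher and 0 lower (median 0.41) with the muscle share in the model. NR4A2, a nuclear receptor, rose by 1.29 (adjusted p = 3.79e-04) and MYC, a growth regulator, fell by 1.43 (adjusted p = 1.04e-06). Circadian clock genes gave 7 higher and 0 lower of 11 (median 0.78, and outside the muscle set 4 higher and 0 lower of 8, median 0.35). They gave 5 higher and 0 lower (median 0.29) with the muscle share in the model. NR1D1, a repressor of the clock and in the muscle set, was at -1.64 to -0.52 (median -0.80) in IMF and -4.99 to -1.85 (median -3.13) in Kid, and HLF, a clock output factor, rose by 1.28 (adjusted p = 1.77e-06).

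Each breed gave 4 arrays against 4, and the depot by breed term (limma F-test) passed the adjusted threshold for 0 of 34227 probes, and 3273 (9.56%) had an unadjusted p under 0.05. The breeds are not shown to act alike by this, and the counts of higher respiratory chain genes above ran from 3 to 59 between breeds, a difference of the list that was not tested. In the order Angus, Hereford, Wagyu x Angus, ADRB3 differed by -4.01, -3.37 and -4.28, and SHOX2 by 3.43, 3.76 and 4.87. MYH11 differed by 3.31, 5.06 and 2.22, and CD163 by -1.98, -3.1 and -1.62, so that for both the difference was farthest from 0 in Hereford, an order for which no test passed (adjusted p = 0.346 and 0.482 for the depot by breed term).

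Fits with scan day gave other counts. With scan day as a block, which leaves the depot difference to the single Kid array scanned with IMF, 1920 probes passed, 297 higher and 640 lower outside the muscle set. In that fit 4.72% of all genes were higher and 2.32% lower, and of the lists 0 Schwann cell genes were higher (median 0.55), 2 smooth muscle genes higher (median 1.68) and 1 macrophage gene lower (median -2.12). With day in a model of all 96 arrays, 18146 passed. ADRB3 was at -4.48 (adjusted p = 0.00586) in the first of these models and -4.10 (adjusted p = 1.43e-13) in the second, CLDN11 at 4.09 (adjusted p = 0.0396) and 5.44 (adjusted p = 7.90e-19), and CD163 at -2.11 (adjusted p = 0.0746) and -2.31 (adjusted p = 4.11e-09).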

How the data were processed

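RNA of each tissue sample was labelled with Cy3 and hybridised to a 1-colour Agilent bovine array (4 arrays per slide). The authors deposited 1 scanner file per array, which holds the processed signal intensity of each spot after background subtraction by the Feature Extraction software, and a table of log2 values with 34227 of the 43653 probes. The values deposited in that table equal log2 of the median signal minus the median background, floored at 1, within 0.0001 for all 3285792 values, and are not scaled between arrays. The supplementary tables of the study served to name probes and for nothing else.

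Control spots and spots the software called outliers were left out, which removed all spots of a probe in 5581 values, and no spot was saturated. Outlier spots numbered 2647 on the Wagyu x Angus IMF array at position 3 of slide 8, whose muscle share was 44.3%. They numbered 5528 on the Angus Omen array at position 4 of slide 10, and 95 or fewer on every other array. Spots of a probe were averaged, log2 taken and the 75th percentile of each array subtracted. Precision was limited by the number of arrays. Groups came from the depot and breed in the labels. IMF and Kid were compared with limma 3.58.1 (R 4.3.3) with breed as a covariate, and Benjamini-Hochberg adjusted p under 0.05 over 34227 probes was the threshold. On simulated data of 12 arrays against 12, with 200 of 32455 probes altered by 1 log2 unit, the test found 159 (79.5%) and made 9 false calls. The simulated noise was normal and independent between arrays, with no slide, scan day, shared animal or muscle share. Far fewer probes were altered than the 56% called in the data, so these figures do not give the error rates of this comparison.

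Probes were named from the study's tables (4439) or from RefSeq accessions (19903), with 149 conflicts left unnamed, which gave 21296 named probes (62.22%) and 10616 genes, and a gene with several probes was read by the probe with the highest mean over the 24 arrays. Named genes were those past the threshold with no overlap between the depots that had the 10 highest differences outside the muscle set with an IMF mean above LD, the 10 lowest, and the 5 highest in the muscle set, with the 3 highest and 3 lowest past the threshold and the defining members of each of 34 lists. HOXA10, EMX2, COX7A2L, COL1A1, DLK1, LMOD1 and SYNPO2 fell outside this rule and were chosen after their values were seen, and a few genes within it are not reported here. The members and lists were chosen with earlier results of these data known.

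The replicate number in the labels equalled the position on the slide for all 96 arrays and so does not pair animals. Alternatives were other scalings (quantile, mean centring), normexp with an offset of 50, the authors' table, other probe sets, the methods' t-test, no breed covariate, the spread of all 60 fat arrays, scan day, slide and replicate number as blocks, the muscle share as a covariate, single breeds, and each array left out in turn. The model of all 96 arrays with scan day, and the fits without the IMF arrays over 40% muscle, without the arrays nearest to another depot or, for the lists, without the Kid array that stood apart, were added after the data were seen.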

Additional observations from a re-analysis of the deposited data

Results flagged for a closer look

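In groups of 4 arrays of 1 breed and depot, a single array lay far from the other 3 in 9 of 153 groups tested, over the 25 genes named for the largest differences and the muscle share, which is near the 1 in 20 that chance gives. Of these, 4 came from 2 Kid arrays. On the Angus Kid array at position 2 of slide 19, the Kid array scanned on the same day as IMF, SLN was at -1.45 against -6.95 to -6.33 on the other 3, and MYH1 at 1.13 against -6.0 to -5.05. On the Hereford Kid array that was nearest to Inter, SHOX2 was at -0.06 against -3.30 to -2.86, and S100A8 at -1.19 against 2.02 to 2.42. On the Angus IMF array at position 1 of slide 8, MYL2 was at 7.41 against 8.19 to 8.25 and TNNT1 at 4.28 against 5.92 to 6.01. CNN1 reached 6.53 on another Angus IMF array against 5.33 to 5.50, ACTRT2 was at 0.95 on a Hereford IMF array against 3.38 to 3.72, and SHOX2 at 0.81 on a Wagyu x Angus IMF array against 1.85 to 1.95. The part of scan day or of mixed-up samples in these values was not tested.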

How the results depend on the processing

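Leaving out each array in turn gave 18263 to 19361 probes past the threshold, 6788 to 7628 higher outside the muscle set and 9096 to 9700 lower. Among the 140 genes named, AQP2 and CD3D lost their call in over 12 of the 24 fits, and HOXA10 gained one without the Kid array nearest to Inter or without the Hereford IMF array at position 3 of slide 9 (-1.51, adjusted p = 0.045). The counts of probes past the threshold, higher outside the muscle set and lower were 1920, 297 and 640 with scan day as a block, and 2922, 649 and 1328 with the shared scan day alone, where 12 IMF arrays faced 1 Kid array. They were 8729, 3488 and 4044 with the muscle share as a covariate, 7346, 2585 and 3187 in Hereford alone and 6455, 1447 and 3483 in Wagyu x Angus alone. Angus alone gave 4808 higher and 5870 lower. Probes higher outside the muscle set numbered 4540 with mean centring and 2929 in the authors' table. With the replicate number as a block 18704 probes passed (7012 higher and 9305 lower), with 1 named call lost, and with slide as a random block 17609. No paired analysis of animals was possible because the labels tie no array to an animal. The muscle set held 6779 probes at a limit of 1 and 1179 at a limit of 3. IMF stood above both Kid and LD for 1581 probes with quantile normalization, 1536 with mean centring and 1393 with normexp, and below both for 3733 with mean centring and 131 in the authors' table, where 2384 lay outside the range in either direction. Of the named genes 41 lost their call with the muscle share as a covariate, 11 without the 5 IMF arrays over 40% muscle, 94 with scan day as a block and 3 with scan day over all 96 arrays. The sign turned with the covariate for FZD4 (0.049), PLIN1 (0.123) and DLK1 (-1.017), in the authors' table for CD3D (-0.041), and with the probe of largest difference times mean for AQP2 (0.418), CD3D (-1.28), DLK1 (-2.327) and UPK3B (0.566). With that probe the list medians were -0.077 for HOX and -0.327 for adipokines, and -0.257 for adipokines with the median over probes. Over all alternatives the adjusted p ran from 1.43e-13 to 0.0246 for ADRB3, 7.90e-19 to 0.0396 for CLDN11, 1.03e-21 to 0.0435 for SHOX2 and 7.25e-13 to 0.0746 for CD163. The methods' t-test called 20656 probes at its own threshold and 19091 after Benjamini-Hochberg adjustment. The causes of these shifts were not tested.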
